A study of Mus musculus with 6 samples.

Results

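Visceral endoderm genes for lipoprotein, vitamin and iron transport were followed in mouse embryonic stem cells (mESCs) with and without Setd2, the histone methyltransferase that places H3K36 trimethylation along transcribed genes. The set was a list of 10 genes: Afp, Ttr, Apoa1, Apoa2, Apob, Apoe, Rbp4, Trf, Cubn and Amn. A probe set counted as a member where the platform annotation named 1 gene and that gene was on the list. This rule found 21 probe sets for 9 of the 10 genes, out of 45037 probe sets and 18193 named genes in the table. Trf, which encodes the iron carrier transferrin, had no probe set of its own: the 1 probe set that names it also names another gene, so no value is given for it.

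RNA came from wild type and Setd2 knockout mESCs of strain 129SV/C57BL/6, hybridised to Affymetrix mouse expression arrays. Each genotype had 3 arrays, described in the labels as biological repeats. Both genotypes were grown on feeder cells and then passed once on gelatin to remove them, and neither received a treatment. The stated aim concerned genes whose expression changes without Setd2 and that primitive endoderm differentiation requires. The labels give neither the deleted part of Setd2 nor the number of cell lines or clones per genotype, so the p-values measure the spread between these arrays, which may be technical.

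Visceral endoderm is the polarised epithelium that primitive endoderm forms around the epiblast of the early embryo and later in the yolk sac. It takes up maternal nutrients through the receptor pair cubilin and amnionless and through megalin, and it secretes the carriers that the liver makes after birth: alpha-fetoprotein, transthyretin, retinol binding protein, transferrin and the apolipoproteins of lipid particles. Undifferentiated mESCs are not visceral endoderm, but cultures of mESCs can hold some cells that express endoderm genes. In RNA from a whole culture, fewer cells of a type and less RNA per cell cannot be told apart.

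Promoter sequence is shown for Cubn and Apoa2, the 2 genes of the list whose knockout arrays all lay below the wild type arrays at a tested probe set, and for Afp, the classical visceral endoderm marker, which stayed near the bottom of the scale. The sequences are the 250 bases before the start site in the RefSeq promoter table (build GRCm38.p6), 5′ to 3′ on the strand of the gene. Capitals mark matches on either strand to motifs known for endoderm regulators: AGATAA and TGATAA for GATA factors, CAAAGTCCA and CAAAGGTCA for HNF4, TGTTTAC and TGTTTGC for FOXA, and CATTGT for SOX factors.
Cubn (chr2:13491877-13492126, minus strand): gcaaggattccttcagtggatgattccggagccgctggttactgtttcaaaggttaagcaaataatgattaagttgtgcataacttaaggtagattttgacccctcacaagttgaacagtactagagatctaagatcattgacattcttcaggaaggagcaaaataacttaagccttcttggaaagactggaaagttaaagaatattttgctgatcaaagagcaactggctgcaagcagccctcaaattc
Apoa2 (chr1:171224804-171225053, plus strand): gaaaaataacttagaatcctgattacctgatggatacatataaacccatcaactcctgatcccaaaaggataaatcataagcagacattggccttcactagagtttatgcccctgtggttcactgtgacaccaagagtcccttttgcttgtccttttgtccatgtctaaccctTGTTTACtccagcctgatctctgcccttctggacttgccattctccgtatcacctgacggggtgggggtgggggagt
Afp (chr5:90490464-90490713, plus strand): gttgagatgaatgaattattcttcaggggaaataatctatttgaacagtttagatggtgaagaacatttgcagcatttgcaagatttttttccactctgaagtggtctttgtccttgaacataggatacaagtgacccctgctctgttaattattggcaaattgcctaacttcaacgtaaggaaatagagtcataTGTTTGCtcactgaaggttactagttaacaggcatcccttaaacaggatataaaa

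The Cubn window held none of these letter strings, the Apoa2 window held 1 FOXA match, and the Afp window held 1 FOXA match. Among 32851 windows of the same length in the table, TGTTTAC was found in 3.17% and TGTTTGC in 4.3%. The first GATA string was found in 9.99% and the other in 7.94%. The SOX string was found in 10.7%, and the HNF4 strings, in the order given, in 0.384% and 0.426%. A second Apoa2 window in the table held no match. The table had entries for 8 of the 10 members and none for Ttr and Trf.

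Values are log2 MAS5 signals, 1 per probe set and array, where MAS5 is the method of the array's maker for combining the several probes to a transcript into a single signal. Probe sets with a mean over all 6 arrays under 5.27, the 40th percentile of the table, were not tested, which left 27022 probe sets. Knockout minus wild type differences were fitted with limma, and p-values were adjusted over all tested probe sets by the Benjamini-Hochberg method, with a threshold of 0.05. A second limma fit took the replicate number in the titles as a block. Shared deviation from the genotype means was clear only for the arrays numbered 1 (correlation over probe sets 0.50). Wild type 2 went with knockout 3 as closely as with knockout 2 (0.23 each), so the pairing of numbers 2 and 3 is uncertain. Over all 6 arrays, calls that passed only with the block depend on that pairing. The fit that left out replicate 1 of both genotypes had no block, so its calls do not rest on one. In the fit without a block 0.648% of all tested probe sets passed (0.274% higher and 0.374% lower in knockout cells), and with the block 7.88% (3.49% higher and 4.39% lower).

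The targeted gene read lower in the knockout arrays: Setd2 (1428555_at) differed by -0.82 ± 0.12 (SE; limma adjusted p = 0.0272, and 0.000744 with the block). Without the block this call was lost with no intensity trend and on leaving out any wild type array or knockout replicate 2 or 3, with limma adjusted p from 0.0704 to 0.214. The genotypes also differed in the Y-linked gene Eif2s3y, 83.4-fold higher in knockout cells, and 709 tested genes of chromosome 8 had a median difference of -0.34. A difference between the cell lines and an effect of Setd2 cannot be told apart in any result given here. None of the 9 genes measured lies on chromosome 8 or Y. The cells read as pluripotent in both genotypes: the 10 pluripotent stem cell markers, Pou5f1, Nanog and Sox2 among them, had a mean level of 12.97 to 13.05 over the 6 arrays.

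Of the 9 genes, 5 were bright enough to be tested, through 6 probe sets. None of the 6 passed the threshold in limma without a block, though 3 had an unadjusted p under 0.05 (11.7% of all tested probe sets did). With the replicate block, 3 probe sets (2 of Cubn and 1 of Apoa2) were lower and 1 of Apoe was higher, while Rbp4 and Amn did not pass. One of the Cubn probe sets entered the test only through its wild type signal, and with the block and no filter on dim probe sets, an alternative chosen after seeing the data, 3 of these 4 calls were kept. At 3 of the 6 probe sets the knockout values all lay below the wild type values, a pattern that 8.99% of all tested probe sets showed (18.1% in either direction). The sign was the same in all 3 pairs of like-numbered arrays at 5 of the 6, and at 43.4% of all tested probe sets. The 5 tested genes, each at its brightest probe set, had differences from -2.13 to 0.47.

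**Figure D1:**
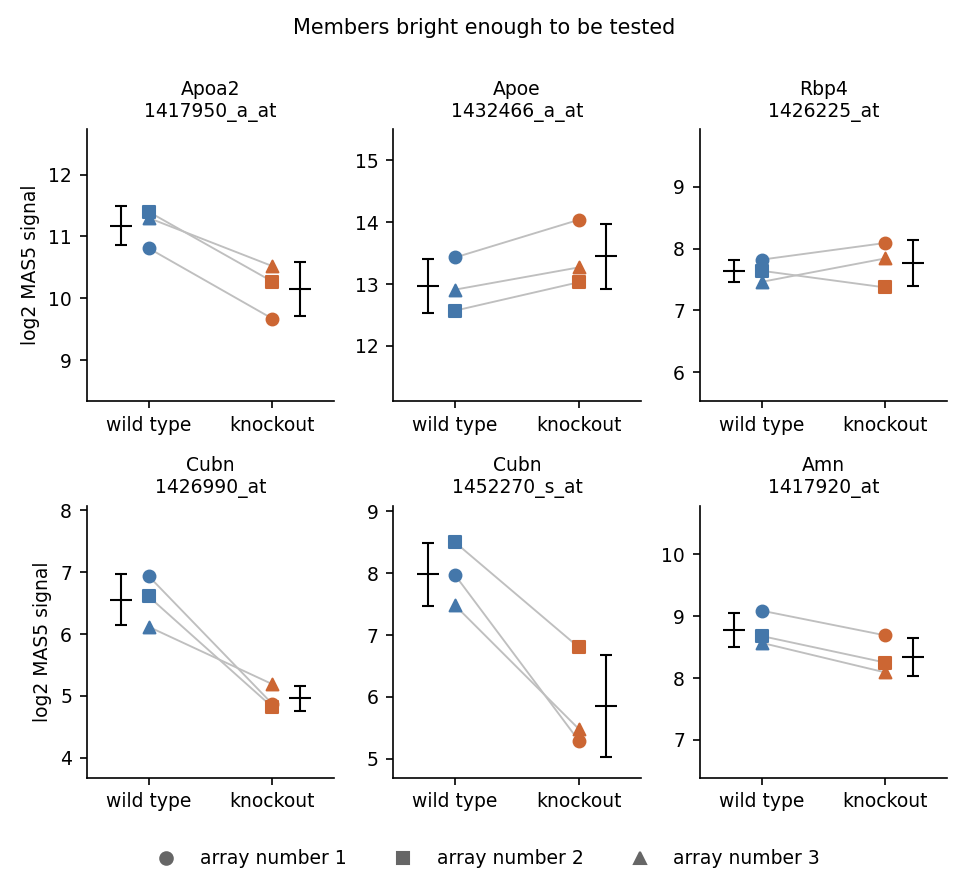
Log2 MAS5 signal of the 6 tested member probe sets on the 3 wild type (blue) and 3 knockout (orange) arrays, with grey lines joining arrays of the same number and black bars giving mean ± SD. Each panel spans the same range of log2 units. Both Cubn probe sets and Apoa2 are lower on every knockout array than on any wild type array, and Apoe is higher within each number although the groups overlap.

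Of the uptake receptors, Cubn had the largest difference among the tested members and Amn a smaller one. Cubn encodes cubilin, the large peripheral membrane receptor that binds vitamin B12 with intrinsic factor, apolipoprotein A-I, albumin and transferrin. Its brighter probe set (1452270_s_at) read 7.97, 8.50 and 7.48 on the wild type arrays numbered 1, 2 and 3 and 5.29, 6.80 and 5.48 on the knockout arrays. The groups did not overlap, and the knockout array numbered 2 stood above the other two. The difference was -2.13 ± 0.43 (SE; 95% interval -3.11 to -1.15), a signal 4.38-fold lower in knockout cells. It did not pass in limma without a block (adjusted p = 0.0824) and passed with it (adjusted p = 0.000584).

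The other Cubn probe set gave the same direction. It (1426990_at) read 6.94, 6.61 and 6.12 in wild type and 4.87, 4.82 and 5.19 in knockout cells. The groups again did not overlap, and the knockout values lay close together. The difference of -1.60 (95% interval -2.33 to -0.87) had a limma adjusted p of 0.0796, and 0.0202 with the block. The knockout mean of 4.96 lay below the filter value of 5.27, so the probe set was tested through its wild type signal and the size of the difference rests on dim values. With the block and no filter its limma adjusted p was 0.0602, while that of the brighter probe set was 0.00222.

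Amn encodes amnionless, the transmembrane partner that cubilin needs to reach the cell surface. It (1417920_at) read 9.09, 8.68 and 8.57 in wild type and 8.69, 8.25 and 8.09 in knockout cells. The groups overlapped, since the knockout array numbered 1 lay just above wild type arrays 2 and 3, but within each number the knockout array was lower, by -0.40, -0.44 and -0.49. The difference of -0.44 (95% interval -0.93 to 0.05) did not pass in limma (adjusted p = 0.482), nor with the block (adjusted p = 0.0521; interval -0.71 to -0.17).

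Within arrays, the brighter Cubn probe set minus Amn was -1.12, -0.18 and -1.09 in wild type and -3.41, -1.45 and -2.61 in knockout cells, a mean difference of -1.69. The pair was chosen after its values were seen, so this is a description with no test.

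Among the apolipoproteins the tested members went in both directions. Apoa2 encodes apolipoprotein A-II, a structural protein of high density lipoprotein. It (1417950_a_at) read 10.81, 11.40 and 11.30 in wild type and 9.67, 10.27 and 10.52 in knockout cells. The groups did not overlap, and the arrays numbered 1 were the lowest in both genotypes. The difference of -1.02 ± 0.24 (SE; 95% interval -1.56 to -0.48), a signal 2.02-fold lower, did not pass in limma without a block (adjusted p = 0.121). With the block the SE was 0.094 and the limma adjusted p 0.00018.

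Apoe encodes apolipoprotein E, a ligand for lipoprotein receptors that many cell types make, macrophages and fibroblasts among them. It (1432466_a_at) read 13.43, 12.57 and 12.91 in wild type and 14.04, 13.03 and 13.27 in knockout cells. The groups overlapped, with the wild type array numbered 1 above 2 of the knockout arrays. Within numbers the knockout array was higher each time, by 0.60, 0.46 and 0.36. The difference of 0.47 (95% interval -0.17 to 1.12), 1.39-fold, had a limma adjusted p of 0.586, and of 0.00158 with the block (interval 0.33 to 0.61). Leaving out knockout replicate 1, the highest array, took the difference to 0.18 (limma adjusted p = 0.728), and without replicate 1 of both genotypes it was 0.41 (limma adjusted p = 0.0546).

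Apoe minus Apoa2 within arrays was 2.62, 1.17 and 1.61 in wild type and 4.36, 2.76 and 2.75 in knockout cells. This pair too was chosen after its values were seen and was not tested.

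**Figure D2:**
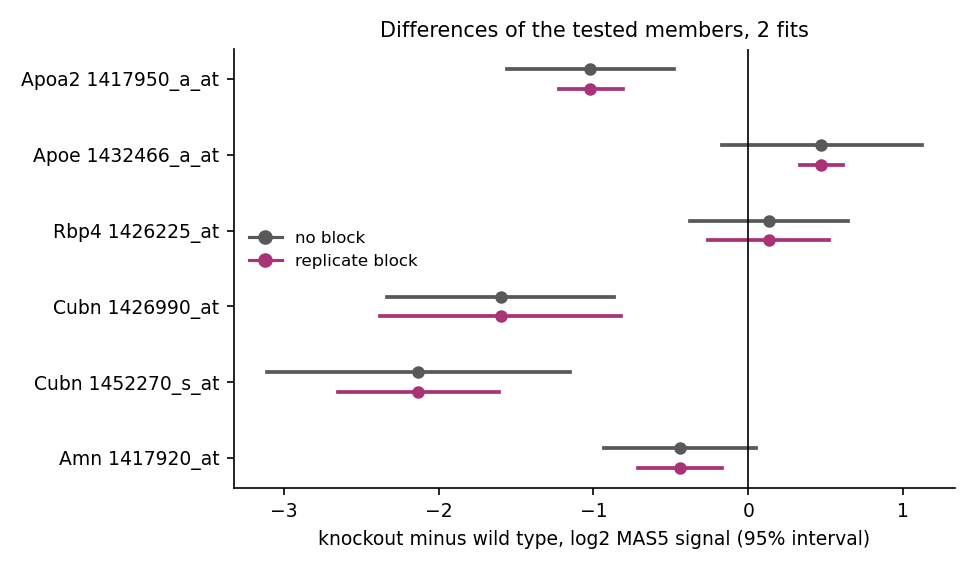
Knockout minus wild type difference in log2 MAS5 signal for the 6 tested member probe sets, with 95% intervals from limma without a block (grey) and with the replicate number as a block (purple). The interval of Apoe spans 0 without the block and runs from 0.33 to 0.61 with it, and the intervals of Cubn and Apoa2 lie below 0 in both fits.

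Rbp4 encodes the plasma carrier of retinol, which travels bound to transthyretin. It (1426225_at) read 7.82, 7.64 and 7.46 in wild type and 8.09, 7.37 and 7.84 in knockout cells. The groups overlapped, and the second pair of arrays went against the other two. The difference of 0.13 had a 95% interval of -0.38 to 0.64 (limma adjusted p = 0.888, and 0.728 with the block). A change within that interval could be missed with 3 arrays per genotype, and the sign turned to -0.03 without knockout replicate 1.

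The other 4 measured genes, Afp, Ttr, Apoa1 and Apob, had 15 probe sets and all of them lay below the filter. Of their 90 values 6 were exactly 0 and 8 reached 5.27, the highest being 5.61. The knockout mean was lower at 8 of the 15 probe sets and higher at 7. Without the filter none of the 15 passed in limma (adjusted p from 0.551 to 0.994), and none had an unadjusted p under 0.05. With the replicate block and no filter, the smallest limma adjusted p among them was 0.257. The classical visceral endoderm markers were thus too dim in both genotypes for a difference to be read from them, and the name of the list describes where these genes act rather than the cells measured.

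Afp encodes alpha-fetoprotein, the main plasma protein of the fetus. Its 5 probe sets ranged from 0.00 to 4.27 in wild type and from 0.00 to 3.76 in knockout cells. They did not go one way: the probe set differences ran from -1.18 to 1.76. At one of them (1436880_at) the values were 0.51, 0.89 and 2.02 in wild type and 2.59, 2.35 and 3.76 in knockout cells, without overlap but far under the filter value. Alb, the albumin gene that neighbours Afp, was also below the filter. Afm, its neighbour on the other side, was tested and differed by -0.77 (limma adjusted p = 0.404).

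Ttr encodes transthyretin, the carrier of thyroxine and of the retinol binding protein complex. Its 4 probe sets ranged from 0.00 to 5.31 in wild type and from 0.00 to 5.05 in knockout cells. Their differences ran from -1.14 to 0.84, and the arrays of 1 genotype spread over most of that range of signals at a single probe set. At 1455913_x_at, for example, wild type cells read 4.49, 0.31 and 0.00 and knockout cells 0.00, 3.91 and 3.40.

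Apoa1 encodes apolipoprotein A-I, the main protein of high density lipoprotein and a ligand of cubilin. Its brightest probe set (1438840_x_at) read 5.58, 4.18 and 4.80 in wild type and 5.61, 5.34 and 5.32 in knockout cells, and the other 3 stayed under 5. The groups overlapped at all 4 probe sets. The apolipoprotein genes that follow Apoa1 on chromosome 9 (Apoc3, Apoa4 and Apoa5) were all below the filter as well.

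Apob encodes apolipoprotein B, the scaffold protein of very low and low density lipoprotein. Its brighter probe set (1455593_at) read 5.60, 5.39 and 5.49 in wild type and 4.84, 1.77 and 4.56 in knockout cells. All 3 wild type arrays lay just above the filter value and all 3 knockout arrays below it, with 1 very low value on the second knockout array. Without the filter the difference of -1.77 had a limma adjusted p of 0.551. At the other probe set (1457554_at) the difference was 0.22 and the groups overlapped.

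**Figure D3:**
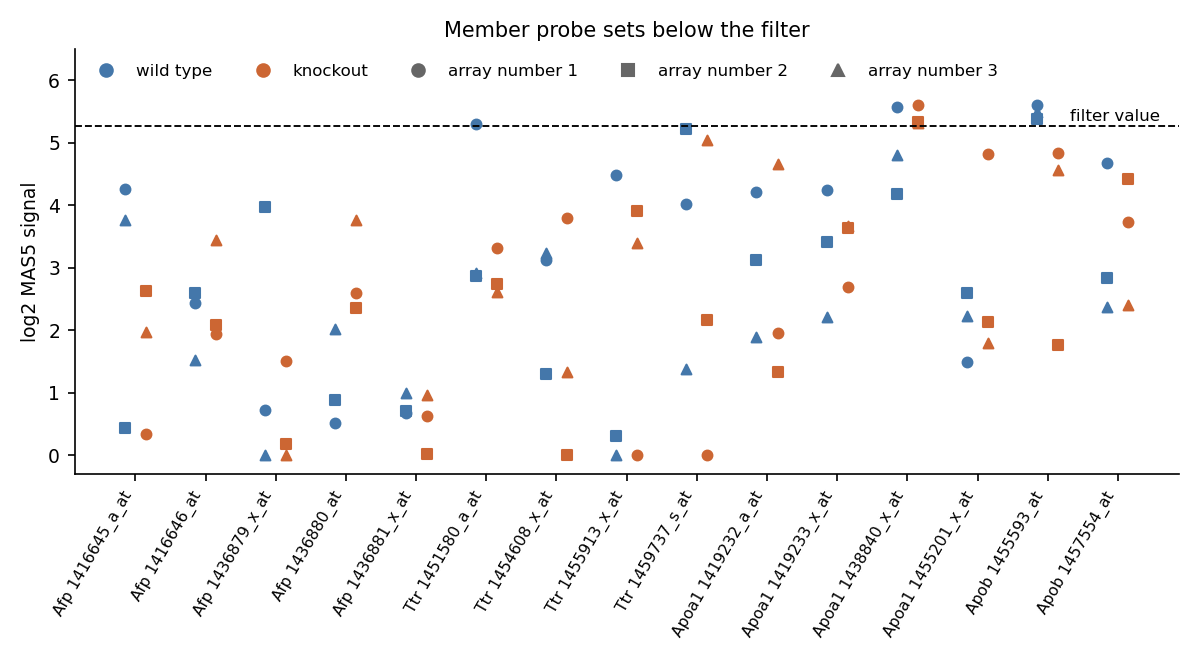
Log2 MAS5 signal of the 15 member probe sets that were not tested, with wild type arrays in blue and knockout arrays in orange and the filter value of 5.27 as a dashed line. Most points of Afp, Ttr and Apoa1 scatter below the line in both genotypes, and the first Apob probe set has its 3 wild type arrays just above it.

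Apoe sits in a cluster of apolipoprotein genes on chromosome 7, and its neighbour Apoc1, which encodes a small lipoprotein component, was measured by 1 probe set. Apoc1 (1417561_at) read 10.63, 9.97 and 10.13 in wild type and 11.10, 10.10 and 10.55 in knockout cells. The knockout array was higher within each number, while the groups overlapped. The difference of 0.34 (95% interval -0.26 to 0.94) did not pass in limma (adjusted p = 0.700, and 0.0538 with the block). Apoc2, 2 places further along the cluster and the activator of lipoprotein lipase, differed by -0.21, and Apoc4 between them was below the filter.

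The other genes of the transport system were taken from 8 lists, each gene at its brightest tested probe set. Across these lists 2 of 83 tested genes passed in limma without a block and 9 with it, against 0.736% and 9.87% of all 12915 tested genes. By direction these were 0.256% higher and 0.48% lower without the block, and 4.13% higher and 5.75% lower with it. The median difference over all tested genes was 0.00.

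Of 14 other apolipoproteins and related carriers 8 were tested and none passed in either limma fit, with a median difference of -0.28. An unadjusted p under 0.05 was found for 1 of the 8 without the block and for 4 with it. Among all 12915 tested genes it was found for 1736 and 3361. The brightest, Apoc1 and the secreted chaperone Clu, differed by 0.34 and -0.42. Of 22 genes for lipoprotein assembly, receptors and lipid transfer 18 were tested, 0 passed without the block and 1 was higher with it, with a median of -0.02. That gene was Mylip, a ubiquitin ligase, at 0.77 (limma adjusted p = 0.564, and 0.0114 with the block). Mttp, the lipid transfer protein that loads apolipoprotein B, differed by 0.28 (95% interval -0.34 to 0.90). The brightest genes, P4hb and Lrpap1, differed by -0.04 and -0.21.

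Among 14 genes for endocytosis with cubilin and amnionless 12 were tested, 0 passed without the block and 1 was lower with it, with a median of -0.05. Dab2, the adaptor that links megalin and cubilin to clathrin and a marker of primitive endoderm, was the one. It (1420498_a_at) read 8.50, 8.23 and 8.01 in wild type and 6.89, 7.52 and 6.78 in knockout cells. The groups did not overlap, and the difference of -1.18 ± 0.24 (SE), 2.27-fold lower, had a limma adjusted p of 0.0903, and of 0.00453 with the block. A second tested probe set of Dab2 differed by -0.69, without overlap, and passed in neither limma fit (adjusted p = 0.451, and 0.217 with the block). The brightest genes of this list, Snx17 and Rab11a, differed by -0.13 and -0.02.

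Lrp2 encodes megalin, the receptor that takes up cubilin with its cargo. It (1452320_at) read 8.77, 9.44 and 9.19 in wild type and 9.01, 9.18 and 9.04 in knockout cells. The knockout values lay inside the wild type range. The difference was -0.05 with an interval of -0.48 to 0.38 (limma adjusted p = 0.953, and 0.849 with the block), an interval that does not reach that of either Cubn probe set. The difference between Lrp2 and Cubn was not tested. Its other bright probe set (1427133_s_at) differed by -0.33 (interval -0.96 to 0.29), an interval that overlaps that of the dimmer Cubn probe set, and the sign of 1452320_at turned to 0.10 without wild type replicate 2.

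Carriers of retinol and iron have partners on the receiving cell. Differences ran from -0.20 to 0.47 in the retinoid list and from -0.22 to 0.74 in the iron list. Of 16 genes for retinoid transport and metabolism 8 were tested and none passed in either limma fit (0 with an unadjusted p under 0.05 in each), with a median of -0.05. The retinol receptor gene Stra6 differed by 0.47 (95% interval -0.32 to 1.25) at a dim signal, and the brightest genes, Crabp1 and Crabp2, which encode retinoic acid binding proteins, by -0.19 and 0.02. Of 15 genes for iron uptake and storage 12 were tested, 0 passed without the block and 1 was higher with it, with a median of 0.03. That gene was Slc40a1, the iron exporter ferroportin, at 0.74 (limma adjusted p = 0.451, and 0.0330 with the block), and its second tested probe set differed by 0.71 (0.373 and 0.0920). With the block and no filter Slc40a1 no longer passed in limma (adjusted p = 0.0687).

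Tfrc encodes the receptor that binds transferrin, the carrier whose own gene could not be read here. Its brightest probe set (1452661_at) averaged 13.39 ± 0.04 over the wild type and 13.24 ± 0.09 over the knockout arrays (SD, n = 3 per genotype), a difference of -0.15 with an interval of -0.31 to 0.01 and a limma adjusted p of 0.467. Fth1, the heavy chain of the iron store ferritin, differed by -0.03. Of 8 genes for thyroid hormone carriage, the other cargo of transthyretin, 2 were tested (Thra at -0.18 and Thrb at 0.40), and neither passed in either limma fit or had an unadjusted p under 0.05.

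Of 26 other yolk sac and liver secreted genes 11 were tested and 1 fell, Rhox5, with a list median of -0.23. Rhox5 (also known as Pem) encodes a homeobox factor of the X chromosome known from extraembryonic tissue, and so does not itself code for a secreted protein. It (1423429_at) read 9.96, 9.36 and 9.48 in wild type and 8.25, 8.01 and 7.85 in knockout cells. The groups stood more than a log2 unit apart. The fall was by 1.57 on the log2 scale, 2.96-fold (limma adjusted p = 0.0173, and 7.34e-05 with the block). It no longer passed in limma when 1 of 4 arrays was left out: wild type 2 (adjusted p = 0.0592), wild type 3 (0.109), knockout 2 (0.0902) or knockout 3 (0.0955). The same held when limma's intensity trend was dropped (adjusted p = 0.0648). The fibrinogen genes Fga and Fgb and 10 more of this list, Alb among them, were below the filter. Fgg, also a fibrinogen gene, was tested and had the highest difference of the list, 0.83 (limma adjusted p = 0.478, and 0.235 with the block). Its groups did not overlap, and its wild type mean of 4.95 lay below the filter value.

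The regulators of visceral endoderm were read alongside. Of 25 transcription factors and signals of this tissue 13 were tested, 1 fell without the block and 5 with it, with a median of -0.53. Of the 13 differences 4 lay above 0 and 9 below. Zbtb20 (0.74) and Eomes (0.60) were higher in knockout cells, with groups that did not overlap, and passed in neither limma fit. Gata6, which directs primitive endoderm fate, fell by 1.63 on the log2 scale (limma adjusted p = 0.0372, and 0.00134 with the block), and lost its call without the filter, without the intensity trend, without any 1 wild type array and without knockout replicate 3 (limma adjusted p from 0.0608 to 0.228). Sox17 (1429177_x_at) differed by -1.55 (limma adjusted p = 0.105, and 0.0221 with the block). Its knockout mean of 5.25 lay below the filter value, and with the block and no filter the limma adjusted p was 0.0614. At another Sox17 probe set (1421657_a_at) the difference was -0.11 and the groups overlapped. Sox7 differed by -1.42 (limma adjusted p = 0.103, and 0.0213 with the block). This call too was lost with the block and no filter (limma adjusted p = 0.0617), and Sox7 did not pass without replicate 1 of both genotypes (0.0621). The other 2 genes lower with the block were Dkk1, a secreted Wnt inhibitor, at -1.55 (limma adjusted p = 0.0118 there) and Hhex, a homeobox factor of anterior visceral endoderm, at -0.53 (0.0204).

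Among the other regulators Hnf4a and Foxa2 had no probe set above the filter. Gata4 (1418863_at) averaged 5.62 ± 0.47 over the wild type and 5.65 ± 0.54 over the knockout arrays (SD, n = 3 per genotype), a difference of 0.03 whose sign turned under quantile normalization and under centring on array medians (-0.03 and -0.01).

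**Figure D4:**
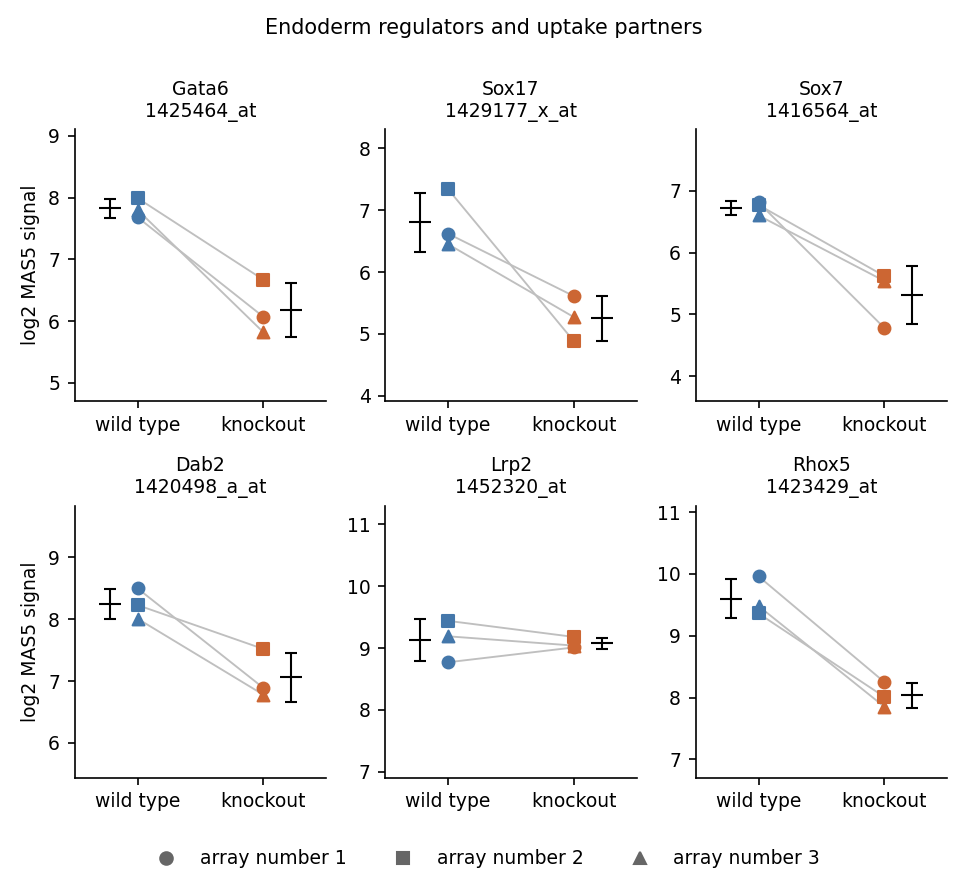
Log2 MAS5 signal of Gata6, Sox17, Sox7, Dab2, Lrp2 and Rhox5 at 1 probe set each on the 3 wild type (blue) and 3 knockout (orange) arrays, with grey lines joining arrays of the same number and black bars giving mean ± SD. The knockout values all lie below the wild type values at 5 of the 6 probe sets, in genes chosen with earlier results of these data known. Of all tested probe sets 8.99% showed this pattern (18.1% in either direction). The Lrp2 values of the knockout arrays lie inside the wild type range. Another tested Sox17 probe set, not drawn, had groups that overlapped.

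Markers of other cell types were read beside these results. Of 15 parietal endoderm genes 14 were tested. Srgn, which encodes the proteoglycan serglycin, and Col4a1, a basement membrane collagen, fell in limma without the block (adjusted p = 0.00635 and 0.0457). Col4a1 no longer passed with quantile normalization, with no intensity trend, or on leaving out wild type 2, wild type 3, knockout 2 or knockout 3 (limma adjusted p from 0.0580 to 0.283). In the whole list 1 gene was higher with the block (Krt18, at 0.51) and 6 were lower, against 4.13% and 5.75% of all tested genes. The median was -0.36, with 5 of the 14 differences above 0 and 9 below. The mean level of the 14 tested genes was 9.16 to 9.19 on the wild type arrays and 8.64 to 8.76 on the knockout arrays. These levels did not overlap, in a list chosen with earlier results of these data known. Plat, Col4a1 and Col4a2 of this list lie on chromosome 8, and without these 3 the level was 9.41 to 9.49 in wild type and 8.91 to 9.04 in knockout cells, with a median difference of -0.35. The mean level of the visceral endoderm regulators was 6.86 to 7.09 and 6.25 to 6.62, again without overlap. The levels also did not overlap for the tested members (9.55 to 9.83 in wild type and 9.04 to 9.16 in knockout cells). The same held for the other yolk sac and liver secreted genes (8.02 to 8.16 and 7.81 to 7.97), while the remaining lists overlapped. How often other sets of genes would part in this way was not tested. The part of the parietal endoderm and regulator lists in the Cubn and Apoa2 differences was not tested. Of 8 definitive endoderm markers 4 were tested, 0 passed without the block, and 1 was higher (Cldn6) and 1 lower (Sox17) with it, with a median of -0.10. Of 10 hepatocyte markers only Fah was tested, at -0.29 and short of the threshold in both limma fits, and Alb was below the filter.

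Feeder fibroblast markers were lowest on the arrays numbered 1 in both genotypes. Their mean level over 25 tested genes of 28 was 7.61, 8.23 and 8.63 on the wild type arrays and 7.49, 8.63 and 8.43 on the knockout arrays. The median difference was -0.07, none passed in limma without the block (2 had an unadjusted p under 0.05) and 2 were higher with it, Fn1 and Pdgfrb, the latter not with the block and no filter (limma adjusted p = 0.0956). Of 13 macrophage markers 9 were tested and none passed in either limma fit (0 and 1 with an unadjusted p under 0.05), with a median of 0.16 and levels of 6.40, 6.83 and 6.81 in wild type and 6.23, 7.09 and 7.19 in knockout cells. No tested marker of either list was at 0 on any array. Within each genotype Apoe was highest on the array numbered 1, where both marker lists were lowest, and the part of these cells in the Apoe signal was not tested.

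**Figure D5:**
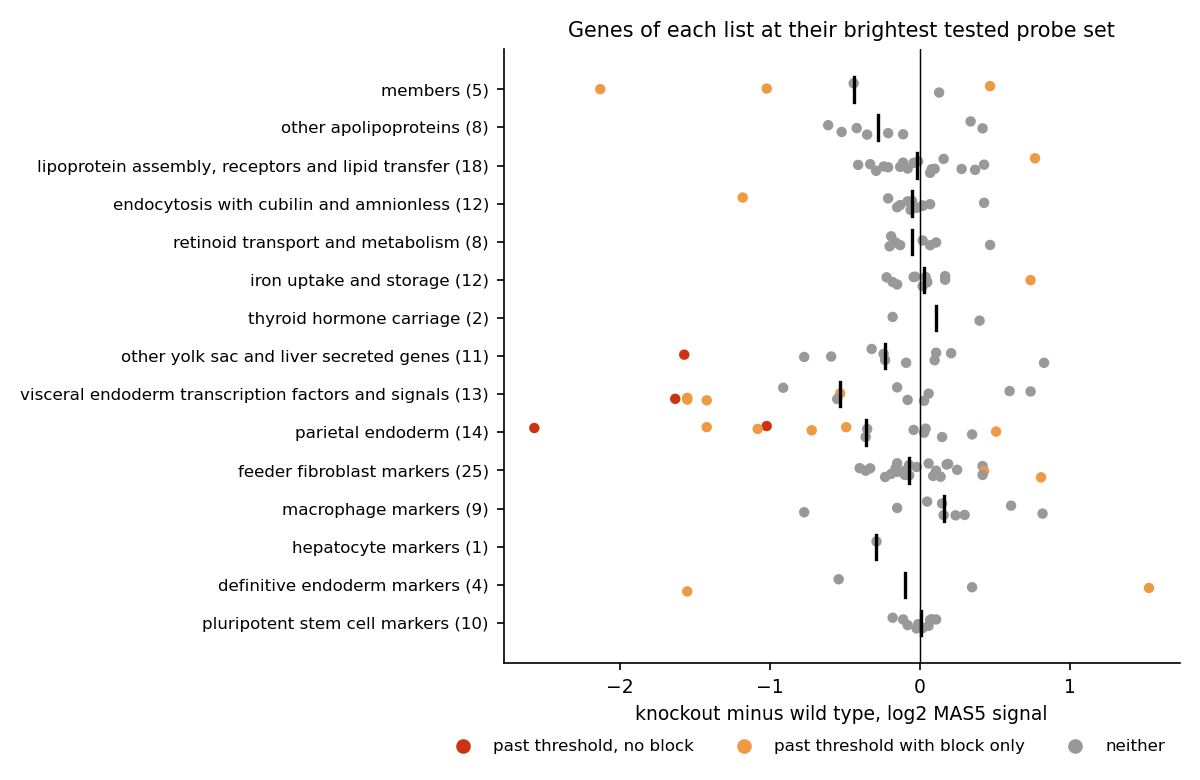
Knockout minus wild type difference in log2 MAS5 signal for each gene of the 15 lists at its brightest tested probe set, with the number of tested genes in parentheses and the list median as a black bar. Red points passed limma's threshold without a block, orange points with the replicate block only. Cubn and Apoa2 are the members below -1. Genes below -1 also occur in the endocytosis, yolk sac, regulator, parietal endoderm and definitive endoderm lists, and in no other list.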

How the data were processed

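Gene expression was measured on 6 arrays, 3 per genotype, assigned from their titles. The deposited values were log2 signals made with MAS5, per the submitters' processing notes, with no version given in the sources used here. Raised to linear scale, the trimmed mean with 2% off each end lay between 497.0 and 497.3 on every array, and array medians were 6.09 to 6.22, so the authors' scaling was kept and no pseudocount was used. Detection calls were not used here. For arrays, their number limits the precision.

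Gene symbols came from the platform annotation: 34945 probe sets had 1 gene, 932 had several and 9160 had none listed. Through gene identifiers, 34741 symbols were matched to RefSeq (assembly GRCm38.p6).

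Differences were fitted with limma 3.58.1 in R 4.3.3 (lmFit, eBayes with an intensity trend, two-sided). The fit without a block was tried on simulated arrays with independent noise. Same-numbered arrays shared no deviation there, and the fit with the block was not tried on them. The members and lists were chosen with earlier results of these data known. All members are named. So are companion genes past the threshold, otherwise the 2 brightest of a list, with Gata4, Gata6, Sox17, Sox7, Foxa2, Hnf4a, Dab2, Lrp2, Tfrc, Stra6 and Mttp. Genes named beyond this, such as neighbours and those passing with the block only, were chosen after their values were seen.

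Deviations from the genotype means correlated at r = 0.50, 0.23 and 0.24 between same-numbered arrays. These are correlations over probe sets, and probe sets are no independent replicates. Each lay above 0.1, so the numbers were taken as pairs and the replicate block is printed where it changes a call. Deviations within a genotype sum to 0, so a match of the arrays numbered 1 by itself raises the correlations among numbers 2 and 3. Passing 0.1 therefore cannot decide the pairs of numbers 2 and 3. Wild type 2 with knockout 3 also gave 0.23, and wild type 3 with knockout 2 gave 0.17. The pairing of number 2 with 2 and of 3 with 3 is thus not clear.

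The alternatives were the filter, the normalization, the intensity trend, a floor on low signals, the block and arrays left out.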

Additional observations from a re-analysis of the deposited data

How the results depend on the processing

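The number of member probe sets past the threshold was 0 without a block. It stayed at 0 without the filter, with the filter at the 20th percentile, without the intensity trend, with quantile normalization, with arrays centred on their medians, with a floor of 5 on log2 signals, and with any 1 array left out (0 to 0). It was 4 with the replicate block, and 3 with the block and no filter, which was chosen after seeing the data. Without replicate 1 of both genotypes, in a fit with no block, it was 2. In genes these counts were 0 without a block, 3 with the replicate block, 2 without replicate 1 of both genotypes and 3 with the block and no filter. Without replicate 1 of both genotypes, limma adjusted p was 0.000738 for Apoa2, 0.0294 for Cubn (1452270_s_at), 0.0754 for Cubn (1426990_at) and 0.0546 for Apoe.

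Over all probe sets 175 passed: 57 without the intensity trend, 2129 with the replicate block, 2033 without replicate 1 of both genotypes, 1614 with the block and no filter, and 31 to 431 with 1 array left out. Of the companion genes 2 passed: 1 without the filter, 0 without the intensity trend, 9 with the replicate block, 9 without replicate 1 of both genotypes, 6 with the block and no filter, and 0 to 3 with 1 array left out. The causes of these shifts were not tested.

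Apoa2, Apoe, Amn and both Cubn probe sets kept their direction in every alternative run, with differences from -1.20 to -0.78 for Apoa2, 0.18 to 0.71 for Apoe, -0.62 to -0.29 for Amn, -2.60 to -1.85 for Cubn (1452270_s_at) and -1.82 to -1.36 for Cubn (1426990_at). With 1 array left out the differences ran from -0.03 (no knockout replicate 1) to 0.33 for Rbp4, from -0.24 to 0.10 (no wild type replicate 2) for Lrp2, and from -0.25 to 0.29 for Gata4. Gata4 also turned to -0.03 with quantile normalization and to -0.01 with centring, and its sign turned without replicate 2 of either genotype (-0.23 for wild type, -0.25 for knockout). Signals under the filter value of 5.27 limit what can be read for Afp, Ttr, Apoa1 and Apob.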
